A study of Mus musculus with 5 samples.

Results

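The 9 genes described here, *Trem2*, *Spp1*, *Gpnmb*, *Lgals3*, *Fabp4*, *Fabp5*, *Cd9*, *Lpl* and *Plin2*, are markers of foam macrophages and of lipid handling, and were taken by gene symbol from the 55487 genes of the deposited table. They were counted in RNAseq libraries of viable macrophages sorted on CD45 and on the macrophage surface protein of the gene *Adgre1* (and, in the study's methods, also on CD11b) from the aortas of male mice that received chow until 8 weeks of age and a Western diet for the following 10 weeks. Both genotypes were *Apoe* KO and carried the floxed *Zeb1* allele. In the 2 *Zeb1* WT/*Apoe* KO libraries (WT) there was no Cre, and in the 3 *Zeb1* ∆M/*Apoe* KO libraries (KO) Cre was expressed from the *Lyz2* (LysM) locus, which is active in myeloid cells at large and not in macrophages alone. For each genotype and condition the cells of 3 mice were pooled. The study's statistics section describes its replicates in general as biologically independent and its legend counts the RNAseq replicates as mice, while the labels do not tie a library to a mouse or a pool, so p-values measure the spread between these libraries, part of which may be technical.

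In these libraries *Lgals3*, *Plin2* and *Cd9* were abundant in most libraries, and *Gpnmb* and *Lpl* were low throughout. *Trem2* was low in WT replicate 1 and KO replicate 1 and moderate in the others. None of the 9 genes differed between the genotypes beyond the spread between libraries, and 8 of the 9, all but *Trem2*, were at or under 3 counts in at least 1 library. They did not rise and fall as a single set, so the name of a foam cell signature describes their known roles and not a shared pattern here.

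Foam cells are macrophages that have taken up more lipoprotein cholesterol than they export and store it as cholesteryl ester in lipid droplets. TREM2 is a surface receptor that binds lipids and signals through the adaptor encoded by *Tyrobp*, and single-cell studies of mouse plaques use *Trem2*, *Spp1*, *Gpnmb*, *Cd9*, *Lgals3* and *Fabp5* to mark foamy macrophages. Lipoprotein lipase, encoded by *Lpl*, frees fatty acids from triglyceride-rich lipoproteins, the FABP proteins carry fatty acids in the cytosol, and perilipin 2, encoded by *Plin2*, coats lipid droplets. ZEB1, the transcription factor deleted in the KO macrophages, is known to bind E2-boxes, whose letters are CACCTG or, on the other strand, CAGGTG.

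The promoters of the genes that hold those letters are printed here because ZEB1 is the factor that the study removed. The 250 bases before the RefSeq start (GRCm38.p6) were searched on both strands, and 6 of the 9 genes had an entry, *Spp1* with more than 1 start. CACCTG or CAGGTG was present in 3 of their 7 entries, 1 each of *Spp1*, *Lgals3* and *Cd9*, and in 17.2% of all 32851 entries. The capitals mark the E2-box letters, whose first base lies 98 bases before the start in *Spp1* (chr5:104434861-104435110, plus strand), 223 and 114 bases before it in *Lgals3* (chr14:47373610-47373859, plus strand) and 73 bases before it in *Cd9* (chr6:125494761-125495010, minus strand).
*Spp1*: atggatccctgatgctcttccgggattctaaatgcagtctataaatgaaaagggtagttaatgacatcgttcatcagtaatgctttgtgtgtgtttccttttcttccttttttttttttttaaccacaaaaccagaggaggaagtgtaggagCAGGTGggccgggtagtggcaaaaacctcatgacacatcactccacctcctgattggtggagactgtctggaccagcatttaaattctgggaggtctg
*Lgals3*: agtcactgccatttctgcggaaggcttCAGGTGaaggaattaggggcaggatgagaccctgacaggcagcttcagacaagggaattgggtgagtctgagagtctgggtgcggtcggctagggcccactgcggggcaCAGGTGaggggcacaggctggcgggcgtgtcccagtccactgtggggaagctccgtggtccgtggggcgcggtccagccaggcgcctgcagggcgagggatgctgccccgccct
*Cd9*: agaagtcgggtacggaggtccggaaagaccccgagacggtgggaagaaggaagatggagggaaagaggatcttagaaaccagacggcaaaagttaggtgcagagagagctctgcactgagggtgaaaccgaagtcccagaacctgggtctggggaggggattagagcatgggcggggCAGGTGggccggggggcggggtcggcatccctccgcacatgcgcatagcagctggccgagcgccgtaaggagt
The windows of *Trem2*, *Gpnmb* and *Plin2* and the other *Spp1* start did not hold these letters, and *Fabp4*, *Fabp5* and *Lpl* had no entry. A match of letters is a description of sequence only.

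Total counts ranged from 20118545 to 50649912 per library, so that a floor of 3 counts corresponded to 0.0592 CPM in the deepest library and 0.149 CPM in the shallowest (CPM, counts put on the scale of a single library size), which covers counting error only. *Zeb1* had 0 counts in 4 libraries and 22 in KO replicate 1 and did not pass the filter on low counts, so it did not check the labels. *Apoe* had between 0 and 86 counts, and *Lyz2*, from which Cre is expressed, differed by −0.39 on the log2 scale (SE 1.32, adjusted p = 1, edgeR). After TMM *Lyz2* was at 21582 and 22555 CPM in WT and at 13335, 20036 and 17312 CPM in KO. The genotypes thus did not overlap for it, as for 11.2% of the genes tested. KO replicate 1 stood apart from the others. It had 16423 genes above 3 counts where the others had between 5009 and 6931, but 870 genes with at least 100 counts where the others had between 1714 and 4421, and 96 counts of *Gapdh* where the others had between 23196 and 50169. The genes of the sorted markers, *Ptprc* (CD45) and *Adgre1*, were above the floor in all 5 libraries, while *Cd68* had 0 counts in WT replicate 1 and 10 in KO replicate 1, *Itgam* (CD11b) had 0 in KO replicate 1 and *Mertk* was above the floor in KO replicate 1 alone. The summed level of 8 macrophage markers, in CPM without TMM, lay between 26574 and 31832 in the WT libraries and was 6942, 28238 and 21285 in KO replicates 1, 2 and 3. *Lyz2*, the locus that also carries Cre, made up most of this sum in every library, and the other 7 markers summed to 1218 and 2638 in WT and to 68.1, 3264 and 3384 in KO. In bulk samples such as these, fewer cells of a type and less RNA per cell cannot be told apart.

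*Trem2* (ENSMUSG00000023992.14, GRCm38 chromosome 17, 48346401 to 48354147, plus strand) had 10 and 1425 counts in WT replicates 1 and 2. It had 22, 3566 and 4346 counts in KO replicates 1, 2 and 3. The receptor gene was thus low in both libraries numbered 1 and far higher in WT replicate 2 and KO replicates 2 and 3, and the genotypes overlapped. Its mean after TMM normalization was 20.9 ± 29.0 CPM (SD, n = 2) in WT and 57.2 ± 48.0 CPM (SD, n = 3) in KO. The fitted log2 fold change of KO over WT was 1.46 (SE 5.18, Benjamini-Hochberg adjusted p = 1, quasi-likelihood test of edgeR). *Trem2* was the only one of the 9 genes above 3 counts in every library. A two-sided exact permutation test of its mean log2 CPM gave p = 0.5, and with 2 libraries against 3 it cannot give less than 0.1.

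*Plin2* (ENSMUSG00000028494.12, chromosome 4, 86648386 to 86670060, minus strand), the droplet coat gene, had 0 and 66990 counts in the WT libraries. It had 3, 84750 and 111914 counts in the KO libraries. It was at or under the floor in both libraries numbered 1, the libraries in which *Trem2* was also low, and its 3 other libraries lay close together at 1944, 1982 and 2228 CPM. The log2 fold change was 0.53 (SE 2.71, adjusted p = 1, edgeR), with 972 ± 1375 CPM (SD, n = 2) in WT and 1403 ± 1221 CPM (SD, n = 3) in KO.

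*Lgals3* (ENSMUSG00000050335.17, chromosome 14, 47367751 to 47386160, plus strand) encodes galectin-3, a lectin that binds galactosides and is abundant in macrophages. It had 20414 and 39247 counts in the WT libraries. It had 0, 91631 and 79212 counts in the KO libraries. *Lgals3* was therefore high in every library except KO replicate 1, where it was not detected at this depth. Its log2 fold change was 0.40 (SE 2.76, adjusted p = 1, edgeR), with 939 ± 283 CPM (SD, n = 2) in WT and 1240 ± 1110 CPM (SD, n = 3) in KO. Without KO replicate 1 it was 0.81 (SE 1.23), still within its error.

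*Cd9* (ENSMUSG00000030342.8, chromosome 6, 125460266 to 125494791, minus strand) encodes a tetraspanin of the cell surface by which the study marked foam macrophages in flow cytometry, though it was not part of the gate used for these libraries. For the surface protein the study reported a larger share of CD9-high macrophages in KO plaques, of all macrophages and of CD45-positive cells. The RNA of *Cd9* had 14338 and 2838 counts in the WT libraries. It had 0, 24106 and 20645 counts in the KO libraries, so that, like *Lgals3*, it was at 0 counts in KO replicate 1 alone. The log2 fold change was 0.11 (SE 3.64, adjusted p = 1, edgeR) with all libraries and 0.38 (SE 2.42) without KO replicate 1. Two-sided exact permutation tests of the mean log2 CPM gave p = 0.9 for *Cd9* and p = 1 for *Lgals3*. *Cd9* overlaps *Gm28809* and *Gm26728* on the opposite strand, and the kit does not keep strand, but these had at most 8 and 10 counts in any library.

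*Spp1* (ENSMUSG00000029304.14, chromosome 5, 104435118 to 104441050, plus strand) encodes osteopontin, a secreted protein that binds integrins and CD44. It had 1410 and 0 counts in the WT libraries. It had 0, 0 and 13028 counts in the KO libraries, and so was present in 1 library of each genotype and not detected in the other 3. The log2 fold change was 1.76 (SE 5.21, adjusted p = 1, edgeR), which rests on KO replicate 3, since without that library the gene did not pass the filter. *Gpnmb* (ENSMUSG00000029816.10, chromosome 6, 49036546 to 49070929, plus strand), which encodes a membrane glycoprotein found in lysosomes of lipid-laden macrophages, had 0 and 117 counts in WT and 30, 1 and 0 counts in KO. It did not exceed 3.4 CPM in any library, and its log2 fold change was −1.04 (SE 3.86, adjusted p = 1, edgeR). *Spp1* overlaps *Gm42793* on the same strand, which had 4 counts in KO replicate 1 and 0 elsewhere.

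The pair of fatty acid binding protein genes on chromosome 3, 187480 bases apart, did not share a pattern. *Fabp4* (ENSMUSG00000062515.3, 10204088 to 10208576, minus strand), which macrophages share with adipocytes, had 9170 and 1793 counts in the WT libraries. It had 30457, 0 and 554 counts in the KO libraries, and so was highest in KO replicate 1, the library in which *Lgals3*, *Cd9*, *Plin2* and *Fabp5* were at or under the floor. Its log2 fold change of 2.13 (SE 3.44, adjusted p = 1, edgeR) was −5.46 (SE 5.47) without that library. *Fabp5* (ENSMUSG00000027533.10, 10012548 to 10016607, plus strand) had 0 and 4047 counts in WT and 3, 5 and 4267 counts in KO, nearly all of them in WT replicate 2 and KO replicate 3. Its log2 fold change was −1.05 (SE 4.84, adjusted p = 1, edgeR). Its near-identical copy *Fabp5l2* had 1 count in all.

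The levels of *Fabp4* in KO replicate 1 stood beside few counts of other adipocyte genes. Of 5 adipocyte markers, *Cidec* and *Retn* had 0 counts in all libraries, and *Lep* and *Plin1* had 21 and 4 counts in KO replicate 1 and at most 1 elsewhere. *Adipoq* had 2 and 1 counts in the WT libraries and 0 in every KO library. The summed adipocyte markers lay between 0 and 1.06 CPM without TMM, being highest in KO replicate 1.

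*Lpl* (ENSMUSG00000015568.16, chromosome 8, 68880491 to 68907448, plus strand) had 42 and 0 counts in the WT libraries. It had 283, 15 and 1 counts in the KO libraries, and thus was low wherever it was found and, like *Fabp4*, highest in KO replicate 1. Its log2 fold change of 3.37 (SE 4.66, adjusted p = 1, edgeR) was the largest of the 9 genes and was −2.36 (SE 2.97) without KO replicate 1.

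**Figure D1:**
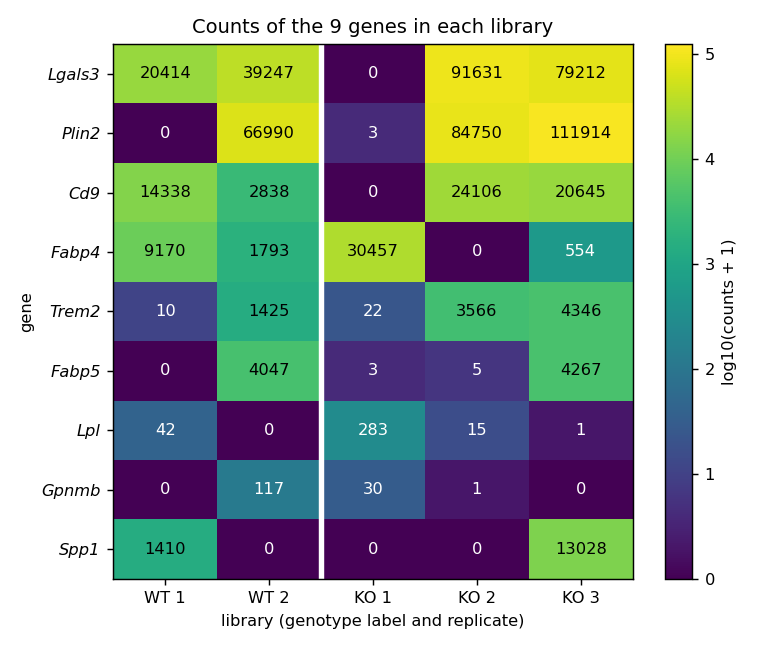
Counts of the 9 genes (rows, ordered by median level per kilobase of exon) in the 2 WT and 3 KO libraries (columns), printed in each cell, with colour giving log10 of counts plus 1. *Trem2* and *Plin2* were low in WT replicate 1 and KO replicate 1, *Lgals3* and *Cd9* were at 0 in KO replicate 1 alone, and *Fabp4* was highest there.

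Levels were compared between genes as CPM per kilobase of exon, by the median over the 5 libraries. Exon length was the union over all annotated transcripts, which for *Fabp4* (4489 bases) covered the whole gene. The order of genes therefore depends on that annotation. *Lgals3* had the highest median (613), followed by *Plin2* (554), *Cd9* (201), *Fabp4* (11.6) and *Trem2* (8.36), whereas *Fabp5* (0.0694), *Lpl* (0.0335), *Gpnmb* (0.00359) and *Spp1* (0) had medians near or at the floor. The single libraries did not keep this order, as *Fabp4* reached 560 in KO replicate 1 and *Spp1* reached 157 in KO replicate 3. Of the 36 pairs of genes, 0 had ranges over the 5 libraries that did not overlap. Every gene but *Trem2* was at 0 in at least 1 library, and *Trem2* fell to 0.0732 in WT replicate 1. This overlap was thus set by the lowest libraries and does not tell whether levels differed between genes.

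Of the 9 genes, 6, 7, 4, 6 and 7 were above 3 counts in WT replicates 1 and 2 and KO replicates 1, 2 and 3. All genes tested gave 60.9%, 60.4%, 77.6%, 49.4% and 62.3% in the same libraries, so KO replicate 1 held the most of the tested genes but the fewest of these 9. At 1000 counts or more there were 4, 6, 1, 4 and 6 of the 9 genes, the single gene of KO replicate 1 being *Fabp4*. Together the 9 genes took between 0.126% of all counts, in KO replicate 1, and 0.570%, in KO replicate 2. Libraries of a genotype often disagreed on whether a gene was present at all. In WT, 5 of the 9 genes were above 3 counts in 1 library and not in the other, against 56.5% of all genes tested, and in KO 8 of the 9 genes, all but *Trem2*, were above it in some libraries only, against 74.0%. The genes did not appear as a block either: WT replicate 2 held *Trem2*, *Plin2*, *Lgals3*, *Cd9*, *Fabp4*, *Fabp5* and *Gpnmb* without *Spp1* or *Lpl*, and KO replicate 3 held *Spp1* but not *Gpnmb* or *Lpl*.

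The question of the comparison was whether the libraries labelled KO differed in these genes from those labelled WT. No difference passed the test. Every one of the 9 genes was kept by the filter, 0 of 9 had an adjusted p under 0.05 and 0 of 9 had an unadjusted p under 0.05, where the lowest was 0.469 for *Lpl* (edgeR). Over all 7905 genes tested, 0% were called and 1.09% had an unadjusted p under 0.05. DESeq2 with default options, the study's tool, called 12.1% of the 6519 genes to which it gave an adjusted p and 0 of the 9, the lowest adjusted p being 0.544 for *Lpl*. It gave no adjusted p to *Fabp4*, *Fabp5* and *Spp1*. The fitted log2 fold change was above 0 for 7 of the 9 genes and below it for *Gpnmb* and *Fabp5*, with a median of 0.53 against 0.78 over all genes tested, of which 4811 were higher and 3094 lower in KO. The SE, which ran from 2.71 to 5.21, exceeded the size of the log2 fold change for 9 of 9 genes, and the exact permutation p (two-sided) was 0.5 or more for each. For *Spp1*, *Lgals3*, *Fabp4* and *Cd9* the difference in mean log2 CPM was below 0 (−0.84, −3.97, −3.47 and −3.11) although the fitted fold change was above it, so even the direction depended on the scale. The common dispersion was 6.44. With errors of this size even a difference of several-fold was not detectable, so the result does not show that the genotypes had like levels.

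**Figure D2:**
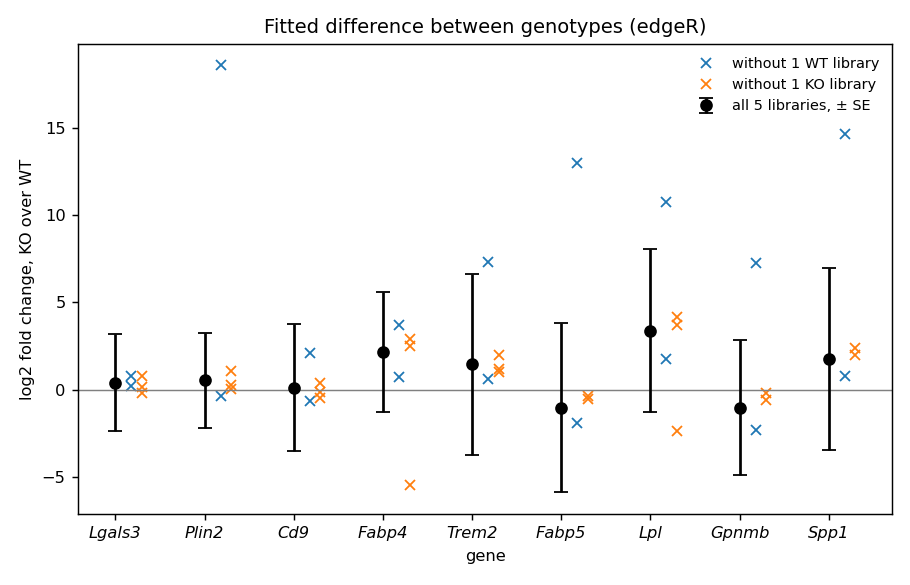
Fitted log2 fold change of KO over WT (edgeR) for the 9 genes, as black points with bars of 1 SE from all 5 libraries and as crosses with 1 WT library (blue) or 1 KO library (orange) left out. Every bar of 1 SE spans 0, and the crosses of *Lgals3*, *Plin2*, *Fabp5*, *Lpl*, *Fabp4*, *Gpnmb* and *Cd9* lie on both sides of it. The blue crosses above 5 for *Plin2*, *Spp1*, *Fabp5*, *Lpl* and *Gpnmb* are fits against a single WT library with 0 counts and give no size. That of *Trem2* is a fit against WT replicate 1 alone, with 10 counts.

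With all libraries, the CPM of the genotypes overlapped for 9 of 9 genes, whereas 11.2% of the genes tested did not overlap. Without KO replicate 1, 4 of the 9 genes no longer overlapped, *Trem2*, *Lgals3* and *Plin2* being higher and *Fabp4* lower in the remaining KO libraries, against 24.2% of the genes tested. For *Plin2* this separation was between 1944 CPM in WT replicate 2 and 1982 CPM in KO replicate 2. Without WT replicate 1 the genes that did not overlap were others, *Lpl* being higher and *Gpnmb* and *Fabp5* lower in KO (3 of 9, against 39.4%). Without WT replicate 2 they were *Trem2*, *Fabp5* and *Plin2*, all higher in KO (3 of 9, against 29.5%). Some of these separations lay at or under the floor, with *Lpl* at 0 counts in WT replicate 2 against 1 in KO replicate 3, and *Fabp5* and *Plin2* at 0 counts in WT replicate 1 against 3 in KO replicate 1. Without KO replicate 2 or 3 there were 0 of 9, against 22.5% and 20.5%. The set thus changed with the library left out, and these counts, chosen after the data were seen, carry no test. In the fit without KO replicate 1, *Trem2* had a log2 fold change of 1.97 (SE 5.18) and *Plin2* of 1.07 (SE 1.81), and 0 of the 8 genes left in that fit were called, as *Gpnmb* did not pass the filter there.

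The spread between libraries was wide for most of the 9 genes. The highest minus the lowest log2 CPM ran from 5.85 for *Gpnmb* to 15.36 for *Fabp4*, with a median of 12.08 against 9.04 over all genes tested, and 6 of the 9 genes were above that latter median. *Trem2* had a range of 7.68, while *Lgals3*, *Plin2* and *Fabp4* had ranges above 15, wider than 99.1%, 99.2% and 99.3% of the genes tested. The mean absolute difference of log2 CPM between libraries of a genotype exceeded that between genotypes for 9 of 9 genes and for 72.3% of the genes tested. Without KO replicate 1 this held for 5 of 9 genes and 59.7% of the genes tested. *Lgals3* moved most, from 7.72 within and 5.30 between genotypes with all libraries to 0.53 within and 1.002 between without KO replicate 1.

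**Figure D3:**
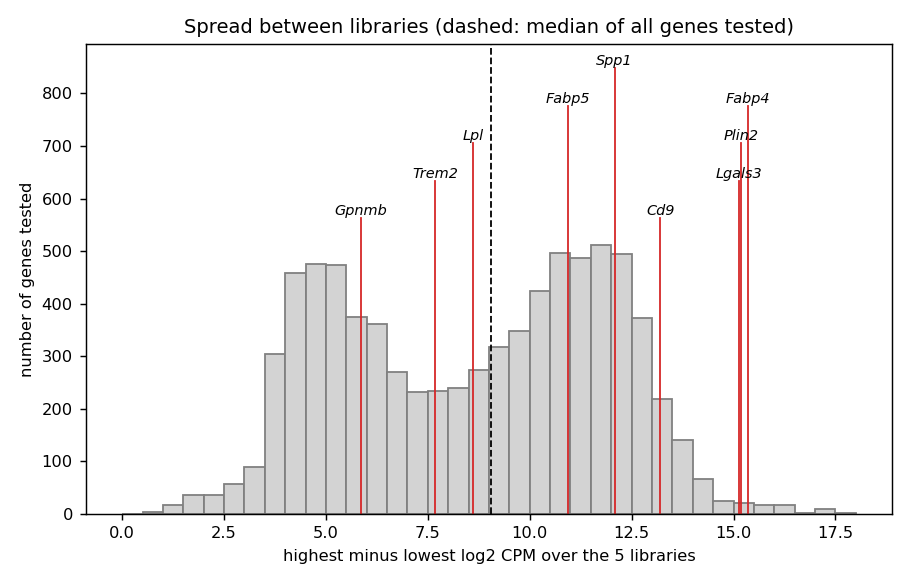
Number of genes tested (grey bars) by the range of log2 CPM, highest minus lowest over the 5 libraries, with the 9 genes as red lines and the median of all genes tested as a dashed line at 9.04. *Gpnmb*, *Trem2* and *Lpl* lie left of the dashed line and the other 6 genes right of it.

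Other genes of the same pathways, 66 in 6 lists, were read in the same fit. Of these, 37 were tested, 0 were called by edgeR and 1 (*Mmp12*) had an unadjusted p under 0.05, 20 had a log2 fold change above 0 and 17 below it, with a median of 0.20. Setting genes with 0 counts in every library of a genotype to their lower bound, against 3 counts per library, left the median of each list and of all genes tested where it was. The genotypes did not overlap for 5 of the 37 tested, beside the 11.2% of all genes tested.

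The adaptor and signalling genes of TREM2 were all tested, and 0 of 5 were called, with 5 of 5 above 0 and a median log2 fold change of 2.33. *Tyrobp*, which encodes the adaptor DAP12, had 44836 and 55684 counts in the WT libraries and 229712, 131862 and 123204 in the KO libraries. It was the only gene of this list whose genotypes did not overlap and the only one present in all libraries, KO replicate 1 included, where *Trem2* had 22 counts. After TMM normalization *Tyrobp* was at 1623 and 1616 CPM in WT and at 18955, 3083 and 2452 CPM in KO, so its log2 fold change of 2.33 (SE 2.02, adjusted p = 1, edgeR) rested largely on KO replicate 1, and it was 0.56 (SE 0.94) without that library. *Hcst*, which encodes the related adaptor DAP10, had 0 and 1096 counts in WT and 0, 2575 and 6020 in KO, low in the same libraries as *Trem2* (log2 fold change 1.92, SE 5.29).

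Of 21 other foamy macrophage genes 15 were tested, 6 above and 9 below 0, with a median of −0.13 and 0 called. *Ctsz*, a lysosomal cathepsin, had 860 and 83222 counts in WT and 1, 83559 and 83169 in KO (log2 fold change −0.02, SE 2.68). *Anxa5*, which encodes the phosphatidylserine binder annexin A5, had 790 and 66865 counts in WT and 0, 54072 and 137701 in KO (log2 fold change 0.44, SE 2.72). Both were low in the libraries in which *Plin2* and *Trem2* were low. *Mmp12*, which encodes macrophage elastase and was named after its values were seen, had 48181 and 2165 counts in WT and 36, 0 and 0 in KO. It was the 1 gene of this list whose genotypes did not overlap (log2 fold change −9.84, SE 4.66, adjusted p = 1, edgeR). *Atp6v0d2* and *Hvcn1* of this list had 0 counts in every library.

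Of 16 genes of the droplet coat, esterification and lipolysis 6 were tested, 2 above and 4 below 0, with a median of −1.66 and 0 called. *G0s2*, an inhibitor of adipose triglyceride lipase, had 4 and 12844 counts in WT and 11, 11129 and 11674 in KO (log2 fold change −0.18, SE 4.12), again with both libraries numbered 1 low. *Abhd5*, which encodes the co-activator of that lipase, had 21508 and 4 counts in WT and 31, 0 and 1 in KO. Its log2 fold change of −8.83 (SE 5.40) rested on WT replicate 1 and was 2.54 (SE 7.28) without it. The genotypes did not overlap for *Plin3*, with 2932 and 552 counts in WT and 159, 0 and 6 in KO (log2 fold change −3.79, SE 5.01), and for the hormone-sensitive lipase gene *Lipe*, with 0 counts in both WT libraries and 7, 54 and 44 in KO. Of the other 4 perilipin genes, *Plin3* and *Plin4* were tested and *Plin1* and *Plin5* had at most 4 counts, and none of them exceeded the 2932 counts of *Plin3* in WT replicate 1. Of 7 other fatty acid binding proteins 0 were tested, as *Fabp7* had 15 counts in KO replicate 1 and the other 6 had 0 counts in every library.

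Of 8 genes for the maturation, anchoring and control of lipoprotein lipase 4 were tested, 3 above and 1 below 0, with a median of 0.92 and 0 called. *Apoc2*, the cofactor of the lipase, was in all libraries, with 7399 and 2345 counts in WT and 8825, 10287 and 30351 in KO (log2 fold change 1.64, SE 3.69), while *Lpl* itself did not exceed 283 counts. *Sel1l*, needed for the lipase to leave the endoplasmic reticulum, had 7327 and 0 counts in WT and 13, 12936 and 7770 in KO (log2 fold change 0.20, SE 4.32). Of 9 osteopontin receptors and other galectins 7 were tested, 4 above and 3 below 0, with a median of 0.08 and 0 called by edgeR. *Lgals1*, which encodes galectin-1, had 159 and 9160 counts in WT and 17618, 31119 and 22286 in KO, without overlap (log2 fold change 2.69, SE 3.54). It was thus high in KO replicate 1, where *Lgals3* had 0 counts. *Cd44*, an osteopontin receptor, had 21687 and 10835 counts in WT and 0, 23763 and 372 in KO (log2 fold change −1.55, SE 3.54), so that the 1 KO library with *Spp1* had few *Cd44* counts. DESeq2 called 1 of the 66 genes of all lists, beside 12.1% of the 6519 genes to which it gave an adjusted p. The 66 include genes at 0 counts in every library. The called gene was *Itgb1*, which encodes an integrin subunit that binds osteopontin (adjusted p = 5.3e-08, DESeq2). It had 0 counts in both WT libraries and 497, 0 and 15180 in the KO libraries, so the genotypes overlapped.

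**Figure D4:**
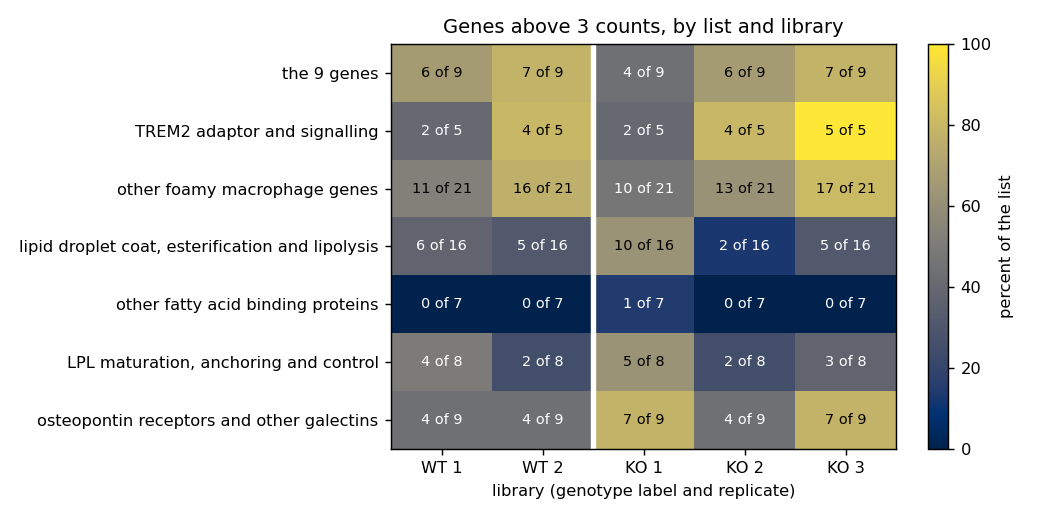
Number of genes above 3 counts in each library (columns) for the 9 genes and for the 6 lists of other genes (rows), with colour giving the percent of the list. KO replicate 1 held the fewest of the 9 genes (4 of 9) and the most droplet genes (10 of 16), and the 7 other fatty acid binding proteins were nearly all under the floor.

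By a fixed measure, the mean absolute difference of log2 CPM centred on each gene's own mean over the 5 libraries, the tested gene most like *Plin2* was *C1qa* (0.41), which encodes a complement subunit made by macrophages and had 0 and 53826 counts in WT and 5, 48430 and 77519 in KO. For *Lgals3* it was *Prr13* (0.23), with 14732 and 27974 counts in WT and 0, 60827 and 38978 in KO. For *Cd9* it was the calcium-binding protein gene *S100a6* (0.35), and for *Trem2* it was *Coq10b* (0.41). The nearest genes of *Spp1*, *Gpnmb*, *Fabp4*, *Fabp5* and *Lpl* were *AU041133*, *Lbhd1*, *Mkln1*, *Samm50* and *Slc38a6*, at between 0.19 and 0.46. With 5 libraries, and a table of 7905 genes to choose from, such likeness describes the pattern only.

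Markers of other cells also moved between libraries, and their part in the values of the 9 genes was not tested. The 5 T cell markers summed to 10.7 and 4195 CPM without TMM in WT and to 0.851, 450 and 996 in KO, and were thus higher in the libraries in which *Trem2* and *Plin2* were high. Of 5 neutrophil markers *S100a8* and *S100a9* made up nearly the whole sum, between 41.2 and 3253, while *Ly6g*, *Camp* and *Elane* had at most 1 count. Of 5 fibroblast markers *Dcn* had 19005 counts in KO replicate 2 and at most 1 elsewhere, and *Lum* had 0 counts. The smooth muscle markers *Acta2*, *Tagln*, *Cnn1* and *Des* had 0 counts in every library, and *Myh11* had 11 in KO replicate 1. The 5 endothelial markers summed to between 0.146 and 76.8, with *Cdh5* at 0. The 5 B cell and the 5 dendritic cell markers summed to at most 3.83 and 3.95.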

How the data were processed

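RNAseq counts of 5 libraries, 2 WT and 3 KO by their genotype labels, were used. The authors mapped paired reads to GRCm38 with STAR (2.5.3a in the submitters' processing notes), quantified genes with RSEM (1.3.0) and GENCODE annotation, and deposited expected counts as whole numbers, without normalization or filter, for 55487 genes.

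edgeR 4.0.16 (R 4.3.3) kept 7905 genes (filterByExpr, minimum count 10), normalized by TMM, with factors between 0.515 and 1.42, and compared genotypes by the quasi-likelihood test without covariates, with adjusted p under 0.05 called. SE was the log2 fold change divided by the square root of F. CPM were scaled to the counts of the genes tested, and log2 CPM used a prior count of 2. DESeq2 1.42.0, other normalizations and filters, the replicate block and each library left out were the alternatives.

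The 9 genes and the lists were chosen with earlier results of these data known. Per list, called genes or else the 2 with the highest mean CPM per kilobase of exon were named, and per gene the tested gene of the most similar centred log2 CPM. *Zeb1*, *Apoe* and *Lyz2* were named as the targeted, deleted and Cre-driving genes. Other genes, namely cell markers, overlapping or neighbouring genes, *Gapdh*, other perilipin genes, *Itgb1*, *Mmp12*, *Lipe*, *Fabp7*, and those at 0, were named after their values were seen or from marker lists. Coordinates and exon lengths came from GENCODE M21 (GRCm38), to which all 9 identifiers matched, and promoters from RefSeq.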

Additional observations from a re-analysis of the deposited data

How the results depend on the processing

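None of the 9 genes was called in any alternative fit in which it was tested, and each genotype comparison of all genes gave 0 genes except DESeq2, which called 790 genes and 1 gene of the pathway lists. At an unadjusted p under 0.05 the edgeR fits gave between 7 and 173 genes and DESeq2 1799. The replicate numbers 1 and 2 occur in both genotypes, but no label says that they mark a shared batch, and the difference of replicate 1 from 2 had a correlation of 0.18 between genotypes across genes. With the replicate block 0 genes were called, 7 at an unadjusted p under 0.05, and the log2 fold changes were −8.51 for *Spp1*, 0.40 for *Gpnmb*, −6.58 for *Lgals3*, −4.46 for *Fabp4* and −4.81 for *Cd9*, against the main direction.

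Of 88 refitted log2 fold changes of the 9 genes, 67 kept their direction and 21 turned, *Trem2* being the one gene that never turned. With DESeq2 they turned to 0.60 for *Gpnmb*, −0.0103 for *Lgals3* and −0.79 for *Cd9*, with RLE size factors to 0.98, −0.10 and −0.93 for the same genes, and with total counts to −0.13 for *Cd9*. Over the fits with a library left out that kept the gene, the lowest and highest were 0.58 and 7.31 for *Trem2*, 0.79 and 14.64 for *Spp1*, −2.33 and 7.23 for *Gpnmb*, −0.18 and 0.81 for *Lgals3*, −5.46 and 3.71 for *Fabp4*, −1.92 and 12.97 for *Fabp5*, −0.66 and 2.09 for *Cd9*, −2.36 and 10.76 for *Lpl*, and −0.35 and 18.58 for *Plin2*. The number of the 9 genes without overlap of the genotypes then ran from 0 to 4. Where 1 WT library was left, it was assumed to vary like the KO libraries. The highest value of *Trem2* is a fit against WT replicate 1 alone, with 10 counts. The highest values of *Spp1*, *Gpnmb*, *Fabp5*, *Lpl* and *Plin2* are fits against a single WT library with 0 counts, so they are neither sizes nor bounds. That fit of *Plin2*, without WT replicate 2, was the 1 refitted value with an unadjusted p under 0.05 (adjusted p = 0.759, edgeR). Of the named pathway genes, refitted likewise after the data were seen, *Ctsz*, *Anxa5*, *G0s2*, *Sel1l* and *Abhd5* turned in at least 1 fit with a library left out. The cause of these changes was not tested. With at least 10 counts in every library *Trem2* alone of the 9 genes was left to fit (1.21). Among the fits with a library left out, *Spp1* and *Fabp5* could not be fitted without KO replicate 3, nor *Gpnmb* without KO replicate 1. At these depths a gene at 0 counts is not shown to be absent.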

Other observations

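The genes next to *Trem2* on chromosome 17 were read after their values were seen. *Trem1*, which encodes an activating receptor of neutrophils and monocytes that uses the same adaptor, ends 99476 bases before *Trem2* starts. It had 10 and 578 counts in the WT libraries and 20, 2219 and 2463 counts in the KO libraries, so it was low in the same libraries as *Trem2*. By the measure of likeness used for the 9 genes (0.42) it ranked 2 of the 7904 other genes tested. Its log2 fold change was 1.996 (SE 5.14, adjusted p = 1, edgeR). The ratio of *Trem2* to *Trem1* counts was 1 and 2.47 in WT and 1.1, 1.61 and 1.76 in KO, in which genes are not corrected for length.

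The other genes of the cluster did not have this pattern. *Treml4* had 0 and 19692 counts in WT and 0, 0 and 22570 in KO (log2 fold change −0.93, SE 3.94, adjusted p = 1, edgeR), thus in the 2 libraries with over 1000 counts of *Fabp5*. *Treml2* had 2780 counts in WT replicate 2 and at most 7 elsewhere, *Trem3* had 9023 counts in KO replicate 3 and 0 elsewhere, and *Treml1* had at most 3 counts in any library.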
